A study of Mus musculus with 6 samples.

Results

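The genes described here mark the non-parenchymal walls of the liver sinusoid: 30 genes of sinusoidal endothelial cells and 15 genes of stellate cells, chosen by symbol. Of these 45 genes, 44 were found among the 12366 genes of the deposited table, 29 endothelial and 15 stellate; Fcn3 was not analysed here. They were measured in whole liver from male C57BL/6 mice, 22 weeks old and fed chow, after a fast of 48 h. There were 3 libraries from wild type mice (WT1, WT2 and WT3, by the labels' replicate numbers) and 3 from Acss2-/- mice (Acss2-KO; KO1, KO2 and KO3), which lack the enzyme that makes acetyl-CoA from acetate in the cytosol and nucleus. Both groups were fasted, so no fed state was compared, and the labels give neither the allele's construction nor whether the knockout reaches every cell type. The labels call the libraries replicates and tie none to an animal, so the p-values measure only the spread between these libraries, which may be technical.

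Liver sinusoids are lined by a fenestrated endothelium that clears macromolecules from blood through scavenger receptors such as the stabilins and the mannose receptor. These cells also release Wnt, R-spondin and BMP ligands that act on the neighbouring hepatocytes. Stellate cells lie between the endothelium and the hepatocytes, store retinyl esters made by Lrat, and can turn into matrix-secreting, contractile cells after injury. Both cell types give a small share of whole-liver RNA. In such bulk samples, fewer cells of a type and less RNA per cell cannot be told apart.

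Values are in CPM, counts per 1e+06 reads of a library, and estimated depth was about 21800000 to 30800000 reads, so that 5 CPM stood for 109 to 154 reads. The knockout was visible in each library: Acss2 was at 74.0, 81.0 and 73.5 CPM in WT and at 1.37, 3.56 and 2.35 CPM in Acss2-KO (limma adjusted p = 2.6e-05). A filter at a mean of 5 CPM left 9355 genes, of which 3413 passed the test at an adjusted p of 0.05, 1252 higher and 2161 lower in Acss2-KO (1763 and 1660 with trimmed-mean scaling), and the median log2 fold change of all 9355 was -0.12 (0.012 with trimmed-mean scaling). A pair of libraries stood apart. KO1 held skeletal muscle transcripts (17 markers summing to 839 CPM, against 17.0 to 26.2 CPM in the other libraries, where 17 is the table's floor) and stratified epithelium transcripts (207 CPM against 7 to 7.85). WT2 held the most pancreas transcripts (12 markers summing to 6960 CPM). These were not confined to WT2, with sums of 1515 CPM in KO1, 610 CPM in KO3 and 369 CPM in WT3. The sums in WT1 and KO2 were 48.1 and 29.4 CPM. These marker lists were chosen after seeing the data.

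Hepatocyte genes dominated the libraries under both genotypes, with 14 markers summing to 108100 to 128000 CPM in WT and 128900 to 138800 CPM in Acss2-KO; Cps1 rose (log2 fold change 2.23) and Ttr and Asgr2 fell (-1.80 and -0.60) among the 14, Asgr2 not passing without WT1 (0.17), WT2 (0.10), KO1 (0.13) or KO3 (0.14), nor with the 3 other scalings (0.071 to 0.091), the replicate block (0.067) or both WT2 and KO1 left out (0.25). The 29 endothelial genes summed to 909, 1243 and 854 CPM in WT1, WT2 and WT3 and to 1133, 954 and 1206 CPM in KO1, KO2 and KO3. The genotypes overlapped in this sum. The 15 stellate genes summed to 466, 628 and 572 CPM in WT and to 655, 417 and 524 CPM in Acss2-KO, again with overlap. Dcn and Ecm1 weighed most in this sum (means of 180 and 160 CPM in WT, 185 and 156 CPM in Acss2-KO). Des gave 72.0 CPM of the sum in KO1. All 6 sinusoidal markers used to check the label (Stab1, Stab2, Lyve1, Clec4g, Oit3 and Gpr182) and 5 of 6 stellate markers (Lrat, Reln, Des, Pdgfrb and Dcn) passed the filter of 5 CPM, and the sixth, Hand2, averaged 4.79 CPM.

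Endothelial genes split in direction. Of 27 tested, 7 rose in Acss2-KO (Lyve1, Robo4, Flt1, Nos3, Bmp6, Gata4 and Bmp2), 3 fell (Dpp4, Clec4g and Gpr182) and 17 did not pass. The share that passed, 37.0%, lay near that of all tested genes, 36.5%. By direction, 7 of 27 rose against 13.4% of all tested genes, and 3 of 27 fell against 23.1%. With trimmed-mean scaling 9 of 27 rose against 18.9% and 3 of 27 fell against 17.8%. The genotypes did not overlap, with Acss2-KO higher, for 8 of 27 (20.1% of all tested genes), and with Acss2-KO lower for 3 of 27 (32.8%). The 3 that fell did so without KO1 too (17.3% of all tested genes), and 2 of them without both WT2 and KO1 (14.2%). The median log2 fold change of the 27 was 0.33, beside -0.12 for all tested genes. The number that rose changed with single libraries, and so did the share over all tested genes. It was 3 without WT1 (9.08% of all tested genes), 7 without WT2 (8.4%), 4 without WT3 (9.88%), 4 without KO1 (8.57%), 10 without KO2 (17.1%) and 3 without KO3 (5.52%). Without both WT2 and KO1 6 rose (7.69%). With KO1 left out 26 endothelial genes were tested, since Nos3 then averaged under 5 CPM.

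**Figure D1:**
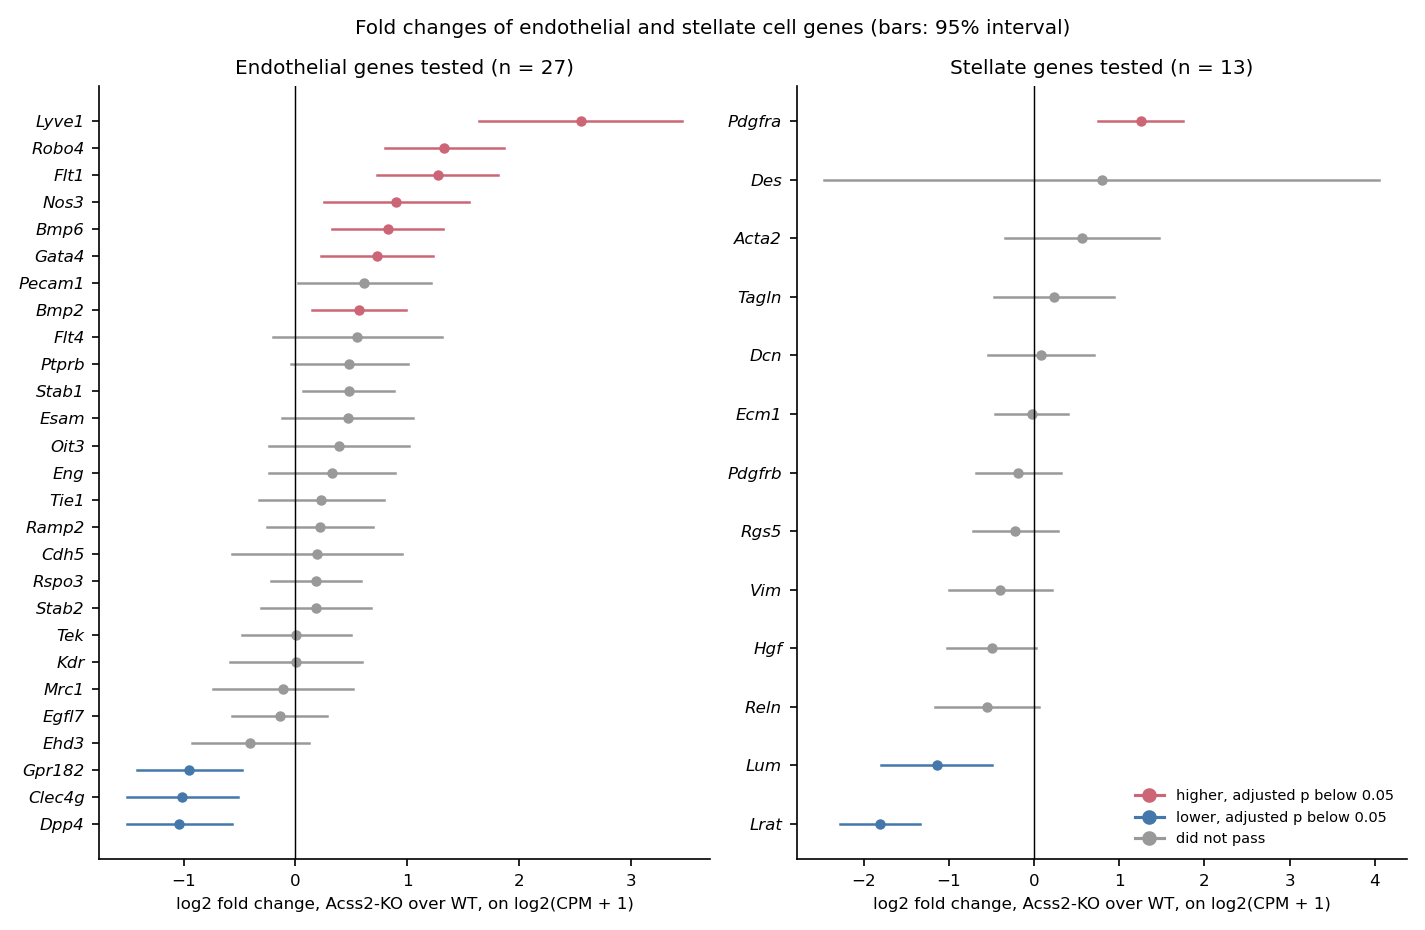
Log2 fold change of each tested endothelial gene (left, 27 genes) and stellate gene (right, 13 genes), Acss2-KO over WT on log2(CPM + 1), with its 95% interval; colour marks genes past an adjusted p of 0.05. Lyve1 lies farthest to the right at 2.55 and Lrat farthest to the left at -1.81, and the interval of Des runs from -2.46 to 4.05.

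Among scavenger receptors and lectins, Lyve1 and Clec4g moved in opposite directions. Lyve1, a hyaluronan receptor of sinusoidal and lymphatic endothelium (ENSMUSG00000030787, chromosome 7, 110850607 to 110862953, GRCm38), was at 6.28, 11.5 and 4.96 CPM in WT and at 70.0, 26.9 and 53.5 CPM in Acss2-KO. The groups did not overlap, and KO2 was the lowest knockout library. The rise was 5.84-fold (log2 fold change 2.55, SE 0.39, adjusted p = 0.0033). Each library left out in turn gave a log2 fold change of 2.26 to 2.93. Lyve1 was the member with the largest change of the 40 tested, and it passed under all 16 alternative settings tried.

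Clec4g, the C-type lectin LSECtin (chromosome 8, 3707064 to 3720651), was at 44.0, 58.5 and 66.7 CPM in WT and at 22.3, 26.2 and 34.1 CPM in Acss2-KO. It fell 2.01-fold without overlap of the groups (-1.01, SE 0.22, adjusted p = 0.0085). Stab1, a stabilin that takes up modified lipoproteins and matrix fragments, was at 56.9, 68.6 and 47.5 CPM in WT and at 77.2, 80.5 and 81.6 CPM in Acss2-KO. Its groups did not overlap, yet it missed the threshold on CPM (0.48, SE 0.18, adjusted p = 0.065) and passed when libraries were scaled by trimmed means, median ratios or upper quartiles (0.022 to 0.025). Stab2, the hyaluronan-clearing stabilin, overlapped between genotypes, at 64.0, 82.1 and 49.5 CPM against 77.7, 61.8 and 79.9 CPM (0.18, 95% interval -0.31 to 0.67). The log2 fold changes of Oit3, a secreted sinusoidal glycoprotein, and Mrc1, the mannose receptor that Kupffer cells also carry, were 0.39 and -0.11, with adjusted p-values of 0.29 and 0.77.

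Growth factor receptors of endothelium included 1 gene of 7 that passed, against 36.5% of all tested genes. Flt1, the VEGF receptor 1 that binds VEGF-A, VEGF-B and placental growth factor (chromosome 5, 147561604 to 147726011), was at 12.6, 18.4 and 10.3 CPM in WT and at 38.1, 26.4 and 37.8 CPM in Acss2-KO. Each knockout library lay above each WT library, and the rise was 2.41-fold (log2 fold change 1.27, SE 0.24, adjusted p = 0.0051). Kdr, the VEGF receptor 2 and main signalling receptor for VEGF-A, was at 52.7, 76.6 and 35.8 CPM in WT and at 48.2, 52.4 and 58.1 CPM in Acss2-KO (0.01, 95% interval -0.58 to 0.59). The WT libraries of Kdr spanned the knockout libraries on both sides. Flt4, the VEGF-C receptor of venous and lymphatic endothelium, had a log2 fold change of 0.55 (adjusted p = 0.22) and passed without KO2 (0.038). Values for the angiopoietin receptor gene Tek and its partner Tie1 were 0.01 and 0.23, and those for the phosphatase gene Ptprb (VE-PTP) and the TGF-beta coreceptor gene Eng were 0.48 and 0.33, with adjusted p-values of 0.13 to 0.98.

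Of 5 junction and vessel-wall genes 1 passed, Robo4, which rose, against 36.5% of all tested genes that passed. Robo4, an endothelial guidance receptor linked to vessel stability (chromosome 9, 37401897 to 37414023), was at 14.0, 18.5 and 13.6 CPM in WT and at 45.6, 28.3 and 49.2 CPM in Acss2-KO. No knockout library fell within the WT range, and the rise was 2.52-fold (log2 fold change 1.33, SE 0.23, adjusted p = 0.0040). Pecam1, the adhesion molecule CD31, was at 18.3, 32.2 and 17.3 CPM in WT and at 41.6, 26.9 and 34.3 CPM in Acss2-KO, overlapping through WT2 (0.62, adjusted p = 0.094). It passed without WT2 (0.026) or KO2 (0.049), without both WT2 and KO1 (0.042) and with trimmed-mean scaling (0.0499). Cdh5, the adherens junction protein VE-cadherin, was at 22.9, 43.1 and 16.5 CPM in WT and at 32.5, 22.0 and 34.8 CPM in Acss2-KO (0.19, 95% interval -0.57 to 0.96). Esam, a tight junction adhesion molecule, and Egfl7, a secreted vessel factor whose gene overlaps Agpat2 by 64 bp, had log2 fold changes of 0.47 and -0.14. Esam passed without KO2 (adjusted p = 0.029).

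Angiocrine ligands, through which the endothelium instructs hepatocytes, were led by the BMP genes. Bmp2 and Bmp6 encode ligands that drive hepcidin expression in hepatocytes. Bmp6 (chromosome 13, 38345716 to 38499728) was at 4.20, 5.94 and 3.43 CPM in WT and at 8.46, 7.46 and 10.1 CPM in Acss2-KO (1.77-fold, log2 fold change 0.83, SE 0.22, adjusted p = 0.019). Bmp2 (chromosome 2, 133552159 to 133562885) was at 20.1, 26.9 and 19.7 CPM in WT and at 36.3, 28.3 and 35.3 CPM in Acss2-KO (1.48-fold, 0.57, SE 0.19, adjusted p = 0.042). Neither gene overlapped between the groups. Bmp6 no longer passed without WT1 (adjusted p = 0.063), WT3 (0.059) or KO3 (0.088). Bmp2 no longer passed without WT1 (0.14), WT3 (0.096), KO1 (0.11) or KO3 (0.14) and without both WT2 and KO1 (0.083).

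The Wnt arm of the angiocrine signals was close to the floor of the table. Rspo3, the R-spondin that amplifies Wnt signalling around central veins, was at 6.19, 7.11 and 7.26 CPM in WT and at 9.38, 7.11 and 7.41 CPM in Acss2-KO (0.19, adjusted p = 0.44). Wnt2 was at 3.58, 6.41 and 4.08 CPM in WT and at 4.82, 3.36 and 2.99 CPM in Acss2-KO, under the filter and with overlap. Wnt9b was at 2.04, 2.69 and 2.75 CPM in WT, was listed at 0 in KO1 and KO2 and was at 1.42 CPM in KO3. Every knockout value of Wnt9b was below the WT values. With no filter on low genes Wnt9b passed as lower (limma adjusted p = 0.018) and Wnt2 did not (0.42).

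Enzymes, receptors and regulators of the endothelium moved both ways. Gpr182, an atypical chemokine receptor of sinusoidal endothelium (chromosome 10, 127747276 to 127751732), was at 22.8, 33.8 and 22.0 CPM in WT and at 11.3, 14.9 and 12.6 CPM in Acss2-KO. It fell 1.93-fold without overlap (log2 fold change -0.95, SE 0.21, adjusted p = 0.0090), and missed the threshold without both WT2 and KO1 (0.064). Gpr182 shares 74 bp with Zbtb39, and whether counting used strand is not stated. RefSeq noncoding genes also cover much of Lrat (Rbm46os, 11395 bp), Clec4g (Gm16553, 11170 bp), Nos3 (Gm15587, 8194 bp) and part of Flt1 (Gm35383, 8757 bp), and reads of these cannot be told apart from those of the named genes if strand was not used. Dpp4, the peptidase CD26, which hepatocytes also carry on their canalicular membrane, was at 147, 150 and 168 CPM in WT and at 59.3, 95.7 and 74.0 CPM in Acss2-KO (2.05-fold lower, -1.04, SE 0.21, adjusted p = 0.0063). The lowest WT library of Dpp4 was above the highest knockout library.

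Gata4, a transcription factor that maintains the sinusoidal type of endothelium and is also found in stellate cells (chromosome 14, 63198922 to 63271692), was at 20.3, 23.9 and 13.1 CPM in WT and at 31.3, 29.5 and 33.6 CPM in Acss2-KO (1.66-fold, 0.73, SE 0.22, adjusted p = 0.031). Nos3, the endothelial nitric oxide synthase (chromosome 5, 24364810 to 24384474, overlapping Atg9b by 294 bp), was at 3.34, 4.03 and 3.39 CPM in WT and at 11.9, 4.69 and 7.52 CPM in Acss2-KO (1.87-fold, 0.90, SE 0.29, adjusted p = 0.037). Both genes were higher in each knockout library than in any WT library. Gata4 no longer passed without WT1 (0.061), KO1 (0.065) or KO3 (0.106). Nos3 no longer passed without WT1 (0.096), WT2 (0.060), WT3 (0.113) or KO3 (0.103), and without KO1, its highest library, it was not tested. Ehd3, a membrane-trafficking ATPase, and Ramp2, the adrenomedullin receptor partner whose gene overlaps Vps25, had values of -0.40 and 0.22 and did not pass (adjusted p = 0.19 and 0.44).

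**Figure D2:**
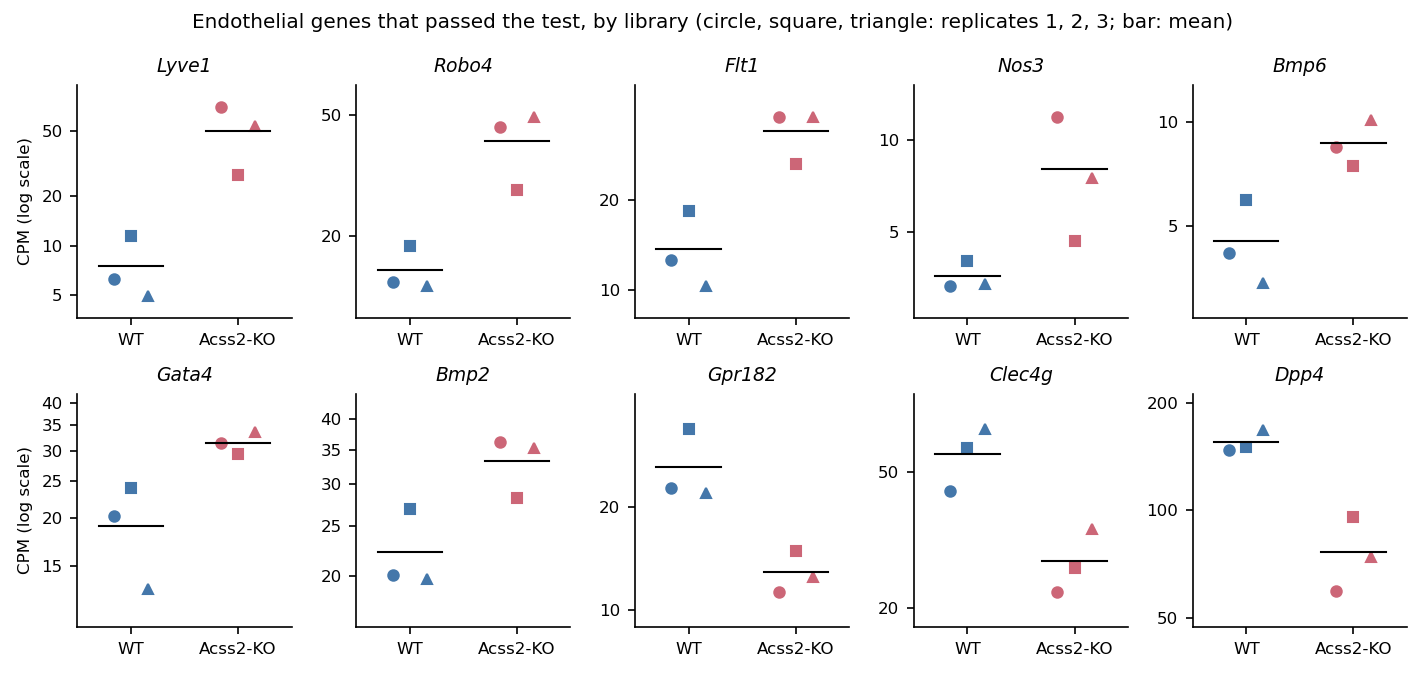
CPM of the 10 endothelial genes that passed, on a log axis, for 3 WT and 3 Acss2-KO libraries (circle, square and triangle for replicates 1, 2 and 3, bar for the mean). In each panel the genotypes occupy separate ranges, and among the 7 genes that rose KO2 is the lowest knockout library.

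Endothelial genes moved together between libraries of the same genotype, and this spread was set against the change between genotypes. WT2 was the highest WT library for 23 of 27 endothelial genes, against 30.2% of all tested genes, and WT3 was the lowest for 20 of 27, against 51.1%. The median endothelial gene was 1.59-fold higher in WT2 than in WT3, while the median over all tested genes was 1.07-fold. In the knockout, KO2 was the lowest library for 21 of 27 genes, against 44.1% of all tested genes. It was also the lowest for 11 of 13 stellate genes, so this ordering was not particular to the endothelial genes. WT2 also held the most pancreas transcripts, and Kupffer cell and macrophage markers were highest there too (807 CPM against 278 and 406 CPM in the other WT libraries). The order of the pancreas sums differed from that of the endothelial sums elsewhere. WT3 was above WT1 in pancreas transcripts (369 against 48.1 CPM) and below it in endothelial genes (854 against 909 CPM). KO1 was above KO3 in pancreas transcripts (1515 against 610 CPM) and below it in endothelial genes (1133 against 1206 CPM). The part of pancreas, Kupffer cell and macrophage RNA in the endothelial values was not tested.

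**Figure D3:**
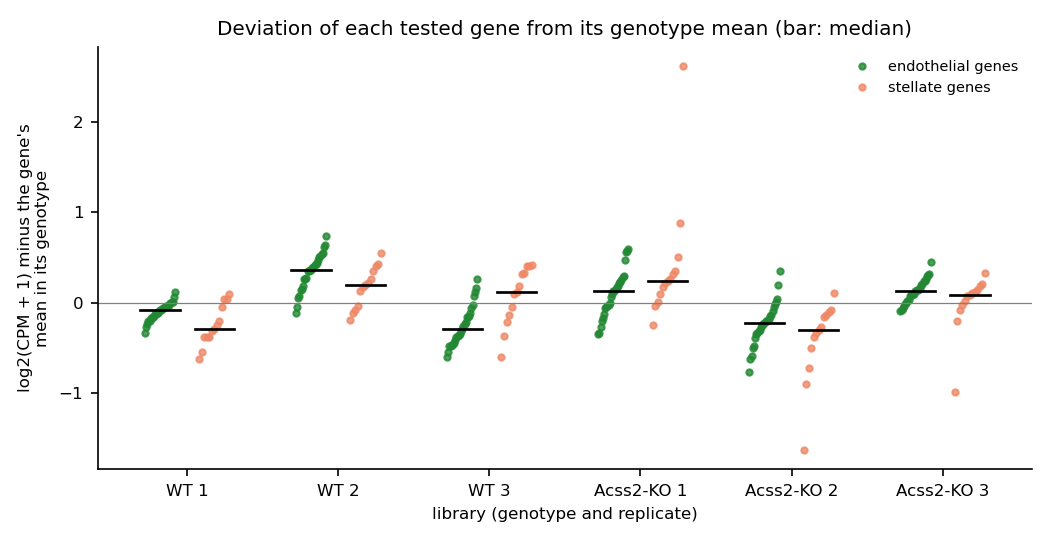
Each point is a tested gene's log2(CPM + 1) in a library minus its mean in that genotype, for 27 endothelial and 13 stellate genes, with bars at the medians. The endothelial median lies above 0 in WT2 and below 0 in WT3 and KO2, with single genes on the other side, and the highest point, in KO1, is Des.

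Each endothelial gene was also divided by the geometric mean of Pecam1, Cdh5, Tie1 and Kdr in the same library, a scaling chosen after seeing the data. That mean was 24.4, 38.5 and 18.2 CPM in WT and 34.7, 26.4 and 32.9 CPM in Acss2-KO, with overlap. Relative to it, Lyve1 was at 0.258, 0.298 and 0.273 in WT and at 2.02, 1.02 and 1.63 in Acss2-KO. The WT ratios of Lyve1 lay far closer together than its CPM values. Flt1 was at 0.515, 0.477 and 0.566 in WT and at 1.10, 0.998 and 1.15 in Acss2-KO, and Robo4 at 0.575, 0.481 and 0.751 against 1.31, 1.07 and 1.5.

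On this scale Lyve1, Flt1 and Robo4 still rose (limma adjusted p = 1.9e-07, 0.046 and 0.033) and Clec4g, Gpr182 and Dpp4 still fell (0.0090, 0.014 and 0.014). Bmp6 and Nos3 kept log2 fold changes of 0.60 and 0.66 (from 0.83 and 0.90 on CPM) and Gata4 and Bmp2 of 0.47 and 0.30 (from 0.73 and 0.57), and these 4 did not pass (adjusted p = 0.31, 0.26, 0.42 and 0.64). The median over all tested genes under this scaling was -0.39. The shares of all tested genes that rose or fell under it were not counted, so these member counts have no background. For Bmp6 and Gata4 the ratios still did not overlap between genotypes, at 0.154 to 0.189 against 0.244 to 0.308 for Bmp6. Clec4g was at 1.81, 1.52 and 3.67 in WT and at 0.643, 0.991 and 1.04 in Acss2-KO. Stab2, the other large scavenger receptor, was at 2.63, 2.13 and 2.73 against 2.24, 2.34 and 2.43, with overlap.

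**Figure D4:**
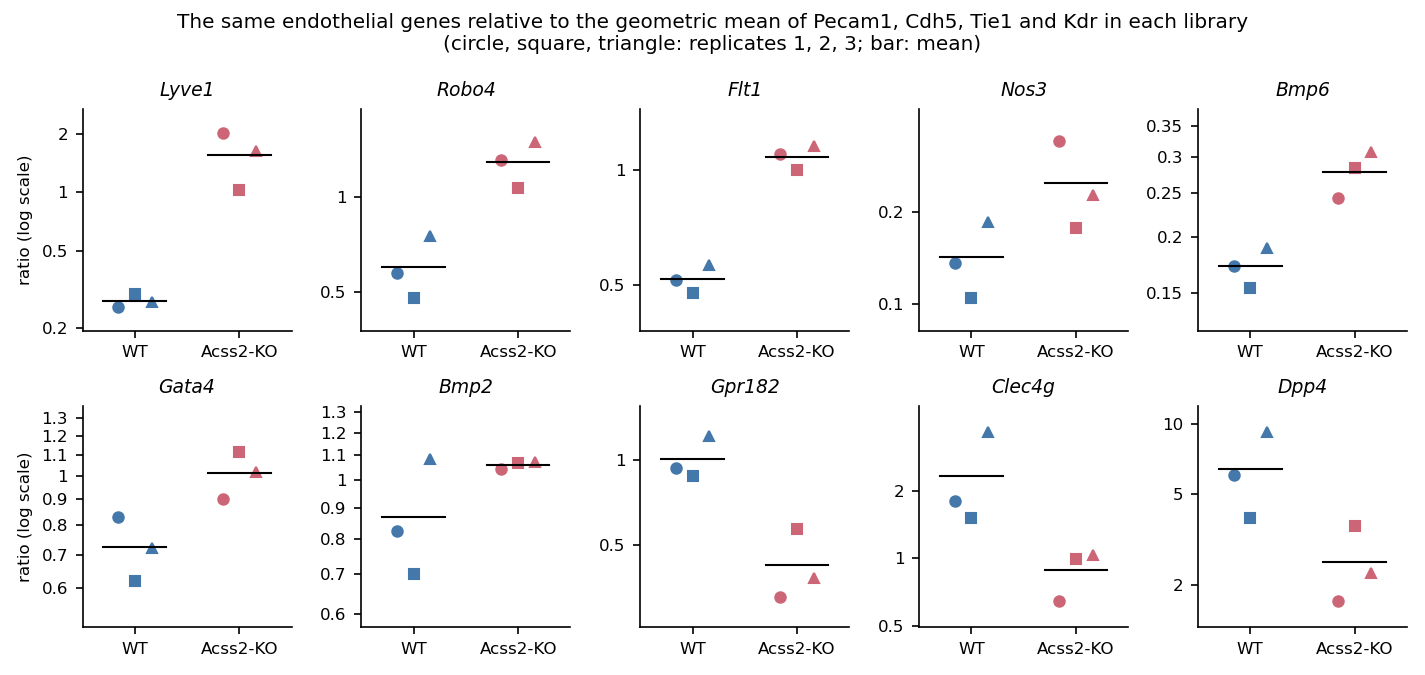
The 10 endothelial genes that passed on CPM, each divided by the geometric mean of Pecam1, Cdh5, Tie1 and Kdr in its library (log axis; circle, square and triangle for replicates 1, 2 and 3, bar for the mean). Genotypes stay apart for Lyve1, Robo4, Flt1, Bmp6, Gata4, Gpr182, Clec4g and Dpp4, and overlap for Nos3 and Bmp2.

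Of 13 tested stellate cell genes, Pdgfra rose, Lrat and Lum fell and 10 did not pass, a share of 23.1% against 36.5% of all tested genes. The median log2 fold change was -0.19, beside -0.12 for all tested genes. Members passed the filter on their mean over both genotypes, and Lrat, Lum, Acta2, Bmp6 and Nos3 had a mean under 5 CPM in 1 genotype. With no filter, 1 of 15 stellate genes rose and 3 fell, and 7 of 29 endothelial genes rose and 4 fell, against 12% and 23.5% of all genes in that fit.

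Lrat, which esterifies retinol for storage and defines the quiescent stellate cell (ENSMUSG00000028003, chromosome 3, 82892579 to 82903973), was at 14.1, 22.6 and 20.4 CPM in WT and at 4.99, 5.03 and 3.89 CPM in Acss2-KO. The lowest WT library was above the highest knockout library. The fall was 3.51-fold (log2 fold change -1.81, SE 0.21, adjusted p = 0.00078). Leaving out each library in turn gave -2.0 to -1.68. Other genes of the quiescent cell did not pass. Reln, a secreted glycoprotein, was at 68.6, 98.4 and 43.7 CPM in WT and at 45.3, 41.1 and 49.2 CPM in Acss2-KO (-0.55, adjusted p = 0.14), and passed without WT3 (0.028).

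Hgf, the hepatocyte growth factor that stellate cells supply, was at 10.3, 15.9 and 15.8 CPM in WT and at 12.3, 7.67 and 8.88 CPM in Acss2-KO (-0.50, adjusted p = 0.12). Ecm1, an extracellular matrix protein that hepatocytes also make, had a value of -0.03 (95% interval -0.46 to 0.40). The neurotrophin receptor gene Ngfr lay under the filter at 3.23, 5.58 and 4.38 CPM in WT and at 1.43, 2.38 and 1.97 CPM in Acss2-KO. Its groups did not overlap, and with no filter it passed as lower (limma adjusted p = 0.017). Hand2, a transcription factor of stellate cells, was at 4.08, 5.82 and 5.66 CPM in WT and at 6.64, 3.27 and 3.29 CPM in Acss2-KO.

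PDGF receptors drive stellate cell growth and migration. Pdgfra (chromosome 5, 75152292 to 75198215) was at 6.54, 10.9 and 8.06 CPM in WT and at 24.9, 17.0 and 22.5 CPM in Acss2-KO. It rose 2.38-fold without overlap of the groups (log2 fold change 1.25, SE 0.22, adjusted p = 0.0040), and the range with each library left out was 1.10 to 1.43. Pdgfrb, its paralog and the usual marker of stellate cells and pericytes, was at 9, 12.7 and 7.01 CPM in WT and at 7.84, 7.46 and 9 CPM in Acss2-KO (-0.19, 95% interval -0.68 to 0.31). Rgs5, a pericyte regulator of G protein signalling, had a value of -0.22 (adjusted p = 0.46).

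Matrix proteoglycans split. Lum, which organises collagen fibrils (chromosome 10, 97565501 to 97572703), was at 5.78, 11.1 and 12.7 CPM in WT and at 2.97, 3.46 and 4.89 CPM in Acss2-KO (2.21-fold lower, -1.14, SE 0.29, adjusted p = 0.016). Lum was lower in each knockout library, and its call was lost without WT2 (0.05) or WT3 (0.073). Dcn, the decorin gene that neighbours Lum on chromosome 10, was at 119, 190 and 231 CPM in WT and at 217, 145 and 194 CPM in Acss2-KO (0.08, 95% interval -0.55 to 0.70). The genotypes overlapped throughout for Dcn.

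Among the filament and contractile genes, the sign of Des and of Tagln turned when KO1 was left out, and Acta2 gave no value without KO1 because its mean then fell under the filter. Des, the muscle-type intermediate filament desmin used to stain stellate cells, was at 4.26, 5.70 and 8.17 CPM in WT and at 72.0, 2.85 and 4.99 CPM in KO1, KO2 and KO3 (0.79, SE 1.24, adjusted p = 0.65). Without KO1 its log2 fold change turned to -0.51 (adjusted p = 0.23). That library also held Acta1 and Myh1, skeletal muscle actin and myosin, at 199.5 and 115 CPM, against at most 3.63 and 2.79 CPM elsewhere. Acta2, smooth muscle actin and a mark of activated stellate cells, was at 4.41, 3.41 and 4.41 CPM in WT and at 12.7, 3.01 and 6.59 CPM in Acss2-KO (0.57, adjusted p = 0.29). It passed as higher without KO2 (0.017). Tagln, an actin-binding protein whose gene overlaps Pcsk7, was at 7.16, 8.11 and 11.2 CPM in WT and at 15.1, 5.90 and 12.1 CPM in Acss2-KO, and its sign turned without KO1 (0.23 to -0.02). Smooth muscle Myh11 stood at 15.1 CPM in that library and at 3.43 to 4.79 CPM elsewhere. The part of muscle RNA in these values was not tested. Vim, the mesenchymal filament vimentin, had a value of -0.40 (adjusted p = 0.26).

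**Figure D5:**
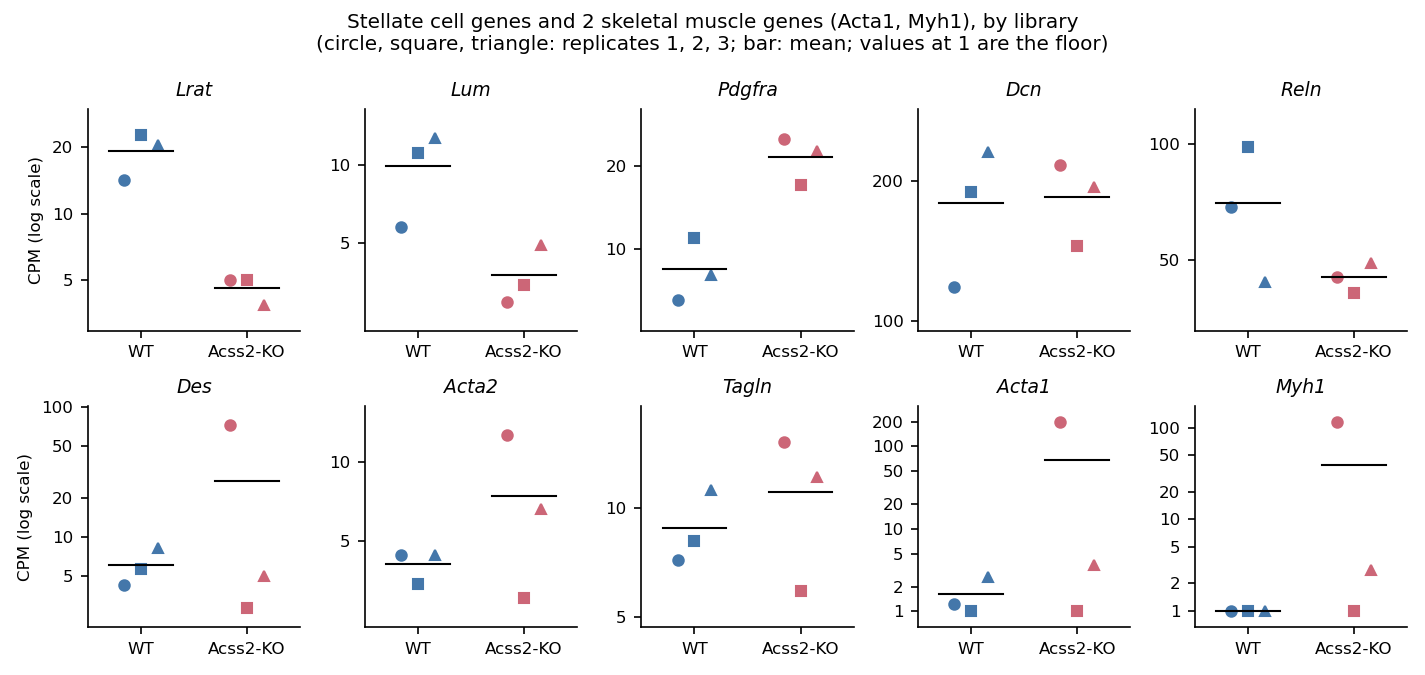
CPM of 8 stellate genes and of the skeletal muscle genes Acta1 and Myh1, on a log axis, by library (circle, square and triangle for replicates 1, 2 and 3, bar for the mean). Lrat, Lum and Pdgfra separate the genotypes, and Des, Acta1 and Myh1 are high in KO1 (72.0, 199.5 and 115 CPM) and under 10 CPM in the other 5 libraries.

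Promoter sequence was looked up for the genes that passed. Of the 44 genes, 28 matched a RefSeq promoter entry on GRCm38.p6, among them 7 of the 13 that passed. Lyve1, the member with the largest change, matched none. The 250 bases before the entry's listed start are shown for the 4 of these 7 with the largest change. They are printed 5′ to 3′ on the gene's strand, with any match to a searched motif in capitals. Flt1 lies at chr5:147726012-147726261 (minus strand), Robo4 at chr9:37401722-37401971 (plus), Lrat at chr3:82903975-82904224 (minus) and Pdgfra at chr5:75152001-75152250 (plus). The Robo4 window runs into the deposited gene span, which starts at 37401897. An annotated Robo4 transcript begins after 175 bases of the window, so the bases behind that point are not upstream of it. For Pdgfra no annotated transcript start was found in the entry.
Flt1: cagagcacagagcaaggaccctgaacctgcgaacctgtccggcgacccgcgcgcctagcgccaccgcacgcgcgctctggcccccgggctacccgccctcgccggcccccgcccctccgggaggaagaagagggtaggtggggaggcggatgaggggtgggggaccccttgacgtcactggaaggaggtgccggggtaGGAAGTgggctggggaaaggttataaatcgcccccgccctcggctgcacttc
Robo4: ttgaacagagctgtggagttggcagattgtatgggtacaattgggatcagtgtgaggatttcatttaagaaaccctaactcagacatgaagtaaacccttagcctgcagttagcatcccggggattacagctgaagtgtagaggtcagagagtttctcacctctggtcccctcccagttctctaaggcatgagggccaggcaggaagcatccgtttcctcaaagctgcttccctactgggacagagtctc
Lrat: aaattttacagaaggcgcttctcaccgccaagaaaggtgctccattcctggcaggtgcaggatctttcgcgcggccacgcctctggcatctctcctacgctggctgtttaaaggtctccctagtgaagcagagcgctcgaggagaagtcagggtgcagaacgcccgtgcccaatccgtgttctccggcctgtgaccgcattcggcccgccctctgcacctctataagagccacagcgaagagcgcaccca
Pdgfra: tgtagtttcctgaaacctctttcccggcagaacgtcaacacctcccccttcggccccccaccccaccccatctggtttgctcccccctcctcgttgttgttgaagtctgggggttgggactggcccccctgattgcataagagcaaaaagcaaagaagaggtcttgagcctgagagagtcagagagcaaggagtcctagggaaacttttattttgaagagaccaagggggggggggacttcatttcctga

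The windows were searched on both strands for short motifs of ETS, GATA and SOX factors and for the E-box. Flt1 held 1 match, GGAAGT starting 52 bases before the start, and the other sequences shown held none, so no matches overlapped in them. The ETS motif GGAAGT was present in 7 of 17 endothelial promoters and 2 of 11 stellate promoters, against 20% of 27025 promoters of the same length. The GATA motif AGATAA was present in 1 of 17 and 2 of 11 (10.3% of all promoters). The SOX motif ACAATG was present in 2 of 17 and 0 of 11 (11% of all), and the E-box CACGTG in 1 of 17 and 1 of 11 (6.05% of all). The GC content of the 4 windows shown ranged from 49.6% in Robo4 to 70.4% in Flt1, with 2 and 23 CpG dinucleotides, and Lrat held 18 CpG at 59.2% GC. A match describes these letters only.

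Other endothelial genes came from lists written with earlier results of these data known. Among 20 tested of 26 further endothelial genes, 3 rose and 5 fell, shares near the 13.4% and 23.1% of all tested genes. Adgrf5, an adhesion G protein-coupled receptor, rose from 50.9 ± 11.5 to 138 ± 28.6 CPM (SD, n = 3; log2 fold change 1.43, limma adjusted p = 0.0027). Cd36, a fatty acid transporter shared with hepatocytes and macrophages, fell from 250 ± 44.9 to 44.0 ± 4.61 CPM, and Fcgr2b, the inhibitory Fc receptor of sinusoidal endothelium, from 56.5 ± 8.33 to 31.6 ± 3.58 CPM. Fcgr2b missed the threshold without both WT2 and KO1 (0.074). Plvap, the diaphragm protein of fenestrae, and Vwf, a marker of larger vessels, did not pass (0.14 and 0.49, adjusted p = 0.60 and 0.15), and were chosen after their values were seen.

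Of 17 endothelial transcription factor genes with values 9 were tested, and 3 rose and 2 fell, against 13.4% and 23.1% of all tested genes. Under the filter, Erg, Fli1, Sox17 and Sox18 were lower in each knockout library than in any WT library, and Gata2 was higher. Sox18 was at 5.21, 7.36 and 4.89 CPM in WT, at 1.01 and 1.37 CPM in KO1 and KO2, and was listed at 0 in KO3. Gata2 was listed at 0 in every WT library. Sox7, Meis2 and Mef2c overlapped between genotypes. Ets2 rose from 30.8 ± 5.23 to 69.4 ± 16.8 CPM (1.13, adjusted p = 0.0054), and Ets1 fell from 26.0 ± 4.57 to 13.7 ± 1.60 CPM (-0.87, 0.0076), as did Elk3 (-1.12, 0.010). The flow-responsive factor gene Klf2 was at 9.58, 11.4 and 9.45 CPM in WT and at 22.3, 14.5 and 25.5 CPM in Acss2-KO (0.94, adjusted p = 0.012), and was chosen after its values were seen. Of 4 tested VEGF and angiopoietin ligand or coreceptor genes 2 fell, against 23.1% of all tested genes. The Flt1 ligand gene Vegfb fell from 11.4 ± 2.56 to 5.88 ± 1.58 CPM (adjusted p = 0.019) and the coreceptor gene Nrp1 from 79.5 ± 25.8 to 41.0 ± 14.0 CPM (0.042). Vegfb lost its call without WT1 (0.078) or KO3 (0.074). Nrp1 lost it without WT1 (0.126), WT2 (0.129), KO2 (0.083) or KO3 (0.149) and under median-of-ratios, trimmed-mean and upper-quartile scaling (0.054 to 0.068). Vegfa, the main ligand, was at 144 ± 37.5 and 122 ± 11.0 CPM (adjusted p = 0.51). None of 6 tested Notch and ALK1 pathway genes passed, against 36.5% of all tested genes.

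Targets of the angiocrine ligands in hepatocytes were read beside the ligands. Of 19 tested Wnt, R-spondin and BMP target or receptor genes 5 rose and 7 fell, a share of 63.2% against 36.5% of all tested genes. Rnf43 and Znrf3, ligases that remove Wnt receptors and are themselves Wnt targets, fell from 34.3 ± 11.7 to 7.90 ± 1.62 CPM (log2 fold change -1.94, adjusted p = 0.0018) and from 16.03 ± 2.56 to 4.46 ± 0.629 CPM (-1.64, 0.00075). Axin2, another Wnt target, overlapped between genotypes and did not pass (-0.35, adjusted p = 0.30). Tbx3, Glul and Nkd1 of the same list fell (adjusted p = 0.017, 0.015 and 0.026). The Wnt receptor genes Fzd5 and Fzd7 rose (adjusted p = 0.0019 and 0.011), and Fzd4 and Fzd8 did not pass (0.27 and 0.055). Id2, a member of the Id family of helix-loop-helix inhibitors, fell from 166 ± 19.9 to 69.8 ± 8.65 CPM. Hamp, which encodes the iron hormone hepcidin, was at 820, 671 and 910 CPM in WT and at 2062, 1090 and 1872 CPM in Acss2-KO (1.02, adjusted p = 0.020). The Id2 relatives Id1 and Id3, which BMP signals also induce, were higher (0.71 and 0.83, adjusted p = 0.042 and 0.029), so the Id genes moved in both directions. Smad6 and Smad7, BMP-induced inhibitors from the Notch and ALK1 list, did not pass (0.07 and -0.18). Axin2, Tbx3, Glul, Nkd1, the Fzd genes, Hamp, Id1, Id3, Smad6 and Smad7 were chosen after their values were seen. Met, the hepatocyte receptor for Hgf, also chosen so, fell from 106 ± 21.3 to 46.1 ± 18 CPM (-1.23, adjusted p = 0.012).

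Of 25 tested further stellate and fibroblast genes, 12 were lower and 3 higher, against 23.1% and 13.4% of all tested genes, with a median log2 fold change of -0.63 beside -0.12 for all tested genes. The 35 genes of this list with values summed to 1011 to 1337 CPM in WT and 779 to 865 CPM in Acss2-KO, without overlap. Cxcl12 alone averaged 361 and 157 CPM of these sums. The separation rested on this gene, and without Cxcl12 the sums of the genotypes overlapped. Angptl6 fell from 9.36 ± 0.669 to 2.06 ± 0.972 CPM (-1.81, limma adjusted p = 0.0017), Pth1r, the parathyroid hormone receptor gene, from 10.5 ± 0.593 to 3.28 ± 1.19 CPM (-1.46, 0.0023), and Col3a1, a fibrillar collagen, from 18.7 ± 10.6 to 2.55 ± 0.850 CPM (-2.37, 0.0025). These 3 and Col6a3, also among the 12, averaged under 5 CPM in Acss2-KO and passed the filter through their WT values. The 3 that rose, named after their values were seen, were the metalloproteinase inhibitor gene Timp3 (1.65, adjusted p = 0.0035) and the basement membrane collagen genes Col4a1 (0.90, 0.031) and Col4a2 (0.98, 0.044). Colec11 and Cxcl12, both known from stellate cells and also named so, fell (-1.06 and -1.23, adjusted p = 0.0037 and 0.0041).

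Markers of neighbouring cells moved beside these genes. Kupffer cell and macrophage markers (14 genes, 4 of 12 tested lower, against 23.1% of all tested genes, and none higher) summed to 278 to 807 CPM in WT and 162 to 247 CPM in Acss2-KO, and Timd4 was listed at 0 in KO1. Of these markers Lyz2, Cd5l and Clec4f had log2 fold changes of -1.65, -2.96 and -1.10 (adjusted p = 0.017, 0.029 and 0.042), each lost without at least 1 library. Clec4f was also lost with the 3 other scalings (0.059 to 0.064), and without both WT2 and KO1 its log2 fold change was -0.47 (0.24). Erythroid and blood markers fell in 5 of 5 genes tested, against 23.1% of all tested genes. Their sums were 162 to 281 CPM in WT and 41.2 to 67.0 CPM in Acss2-KO. Alas2, Hbb-bt and Hbb-bs had values of -2.60, -2.08 and -1.91. Of 2 tested leukocyte genes Ptprc fell (-1.40, adjusted p = 0.0090), against 23.1% of all tested genes, and Laptm5 did not pass (0.26). The 8 leukocyte markers summed to 29.8 to 75.4 CPM in WT and 24.3 to 31.8 CPM in Acss2-KO, with overlap. Under the filter, Itgam was higher in each knockout library (1.42, 2.41 and 1.33 CPM in WT, 7.67, 3.03 and 5.24 CPM in Acss2-KO). Cd52, also under the filter, was lower in each. The 4 cholangiocyte markers summed to 49.0 to 60.9 CPM in WT and 32.9 to 37.5 CPM in Acss2-KO, with Spp1 lower (-2.08) and Sox9 higher (1.33). Smooth muscle and mesothelial markers (4 genes, 2 tested) summed to 114 to 145 CPM in WT and 51.2 to 85.9 CPM in Acss2-KO. These sums came mostly from Mylk (-1.07, adjusted p = 0.026), and without Mylk they overlapped. Mylk missed the threshold without WT1, WT2, WT3 or KO3 (0.053 to 0.082). Myh11, the other tested gene, had a log2 fold change of 0.42 and did not pass (adjusted p = 0.52). The part of these cells in the values of Mrc1, Cd36, Vim, Acta2 and Tagln was not tested.

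In the authors' deposited table, adjusted p-values under 0.05 were given to 5 endothelial genes with a positive log2 fold change (Lyve1, Robo4, Flt1, Nos3 and Bmp6) and 1 with a negative one (Wnt9b), against 12.5% and 14.7% of the 12366 genes listed there. For stellate genes the authors' deposited table gave 3 positive (Des, Pdgfra and Acta2) and 3 negative (Lrat, Lum and Ngfr). Their adjusted p-values in the authors' deposited table were 0.052 for Clec4g, 0.057 for Dpp4, 0.062 for Gpr182, 0.056 for Gata4 and 0.12 for Bmp2, all of which passed here. Des, with a log2 fold change of 2.29 and an adjusted p of 4.6e-08 in the authors' deposited table, did not pass here.

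Levels between genes were compared per kb of the longest annotated transcript (GENCODE vM1). On this scale Dcn (102 CPM per kb) and Ecm1 (84.0) were the most abundant of the 44 genes in WT, followed by the endothelial genes Clec4g (39.1), Dpp4 (29.4), Ehd3 (24.9) and Eng (23.5). In Acss2-KO Clec4g and Lyve1 stood at 19.1 and 19.2 CPM per kb, against 39.1 and 2.90 in WT. Lrat went from 3.56 to 0.867 and Pdgfra from 1.3 to 3.27 CPM per kb. The large scavenger receptors Stab1 and Stab2 were at 7.21 and 7.93 CPM per kb in WT, a difference within the spread between WT libraries.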

How the data were processed

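Liver RNA of 3 WT and 3 Acss2-KO libraries was sequenced; per the labels' protocols, libraries were made by TruSeq from total RNA of flash-frozen tissue. The deposited library values are log2 CPM, rounded by the authors to 2 decimals, with values under 1 CPM listed at 0. The unit was inferred from the antilogs, which sum to 997100 to 997900 per library. Log2 fold changes and p-values of the authors' own test were deposited beside them, by a tool not given in the sources. Per the submitters' processing notes, Bowtie 0.12.2 and mm8 were used, in roles not stated. The deposited coordinates follow another build: gene starts lay a median of 8 bp from RefSeq genes on GRCm38.p6 (11621 genes on the same chromosome), and they are printed as GRCm38. How counting treated strand and multiply matching reads is not stated.

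Depth was estimated from the steps between low values; rounding on the log scale kept whole reads from being recovered, so no count model was run, and limma was used in its place as the design provided. A listed 0 was set to 1 CPM. Genes averaging 5 CPM or more were compared by limma 3.58.1 on log2(CPM + 1) (robust, with a mean-variance trend; statmod 1.5.0, R 4.3.3), without covariates, with Benjamini-Hochberg adjustment over all tested genes and a two-sided threshold of 0.05. Fold changes on this scale understate the change of low genes. The procedure was tested on simulated data. Genes were drawn independently there and no tissue carry-over was simulated, so the simulation does not cover the shared shifts between libraries described above. Members and lists were chosen with earlier results of these data known. Values are given for every member that passed and for defining markers. From each context list up to 3 genes that passed, those with the smallest p, were named. Other genes of these lists were named after their values were seen, whether or not this is said beside them. Alternatives were other pseudocounts, scalings and filters, each library left out, both WT2 and KO1 left out, and a replicate block.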

Additional observations from a re-analysis of the deposited data

How the results depend on the processing

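Direction and call stayed the same for Lyve1, Robo4, Flt1, Clec4g, Dpp4, Lrat and Pdgfra under every alternative that gave a value. The endothelial genes that rose (7) numbered 3 to 10 with each library left out. With all-endothelium marker scaling they numbered 3, and the share over all tested genes was not counted there. Those that fell (3) were 3 throughout the single-library omissions. The stellate genes that rose (1) numbered 1 to 2 with each library left out, and those that fell (2) numbered 1 to 2; with a minimum of 20 CPM, which left 4 stellate genes tested, both were 0. Over all tested genes, higher calls (1252) numbered 519 to 1608 and lower calls (2161) 1239 to 2420 with each library left out, 741 and 1112 with a minimum of 20 CPM, and 715 and 1319 without both WT2 and KO1. The sign turned for genes that did not pass: with all-endothelium marker scaling for Stab2 (-0.086), Kdr (-0.26), Tek (-0.25), Tie1 (-0.026), Cdh5 (-0.068), Rspo3 (-0.063) and Ramp2 (-0.031); with median-of-ratios and trimmed-mean scaling for Mrc1 (0.017 and 0.019) and Ecm1 (0.10 and 0.10), and with upper-quartile scaling for Ecm1 (0.063); without both WT2 and KO1 for Mrc1 (0.24), Des (-0.53), Pdgfrb (0.040) and Tagln (-0.066). Ranges that crossed 0 with each library left out were -0.30 to 0.21 for Mrc1, -0.27 to 0.27 for Kdr, -0.18 to 0.21 for Tek, -0.0077 to 0.44 for Tie1, -0.11 to 0.56 for Cdh5, -0.26 to 0.0094 for Egfl7, -0.51 to 1.61 for Des, -0.13 to 0.055 for Ecm1, -0.37 to 0.020 for Pdgfrb, -0.20 to 0.28 for Dcn and -0.023 to 0.59 for Tagln. Kdr, Tie1 and Cdh5 belong, with Pecam1, to the all-endothelium marker scale itself. Their turned signs under that scaling were therefore partly fixed by its construction. Apart from omissions and filters, the cause of turned signs was not tested. Same-numbered libraries shared only a number (correlation of their deviations -0.10, -0.14 and 0.09); with the replicate block 6 endothelial genes rose and 3 fell, 1 stellate gene rose and 2 fell, Bmp2 was at an adjusted p of 0.058, and 1260 genes were higher and 2137 lower over the whole table. Wnt9b, Wnt2, Ngfr and Hand2 averaged under the 5 CPM filter, and the 1 CPM floor of the table limits what can be read from Wnt9b.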
